A study of Homo sapiens with 4 samples.

Results

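The genes of cholesterol and fatty acid synthesis were examined in HCCLM3 cells depleted of KIAA1429. The module held 36 genes, taken by name: 18 enzymes of sterol synthesis, 6 genes of sterol sensing and transport, and 12 enzymes that make, lengthen, desaturate or activate fatty acids. For each gene the values of its listed transcripts were added up in each library, and all 36 were found among the 13036 genes listed, with 174 of the 38510 transcripts. HCCLM3 is a human hepatocellular carcinoma line. The cells carried either a control short hairpin RNA (shCtrl, 2 libraries) or a short hairpin RNA against KIAA1429 (shKIAA1429, 2 libraries), stably delivered by lentivirus, so that control and knockdown cells shared the infection. The labels name neither a clone nor a culture for any library, and p-values measure only the spread between these libraries, which may be technical. KIAA1429, now called VIRMA, is a subunit of the complex that writes N6-methyladenosine on RNA, and the comparison asks which transcripts differ when it is depleted. Values are FPKM, fragments counted on a transcript and scaled both to its length and to the library total.

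Cholesterol is built from acetyl-CoA through mevalonate, farnesyl diphosphate, squalene and lanosterol, and fatty acids are built from the same acetyl-CoA through malonyl-CoA. Most genes of both routes are switched on by the sterol regulatory element-binding proteins, membrane-bound transcription factors encoded by SREBF1 and SREBF2. When sterols are scarce the escort protein SCAP carries them from the endoplasmic reticulum to the Golgi for cleavage, and when sterols are plentiful the INSIG proteins hold SCAP back. Liver is a main site of both routes.

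The FPKM of all listed transcripts summed to between 370253.5 and 390224.4 per library, and read depth is unknown, so no counting error can be attached to single values. VIRMA stood at 9.37 and 14.1 FPKM with shCtrl and 6.90 and 8.52 FPKM with shKIAA1429. Its log2 fold change of FPKM + 1 was -0.53 (SE 0.24, limma adjusted p = 0.917), and the exact permutation p of 0.33 is the lowest that 2 libraries against 2 can reach. Of the cell type markers, 0 of 7 hepatocyte genes had a row in the files analysed here, with ALB and AFP among those absent. Of 5 epithelial genes the 3 keratins had a row, summing to between 2440 and 2664 FPKM, and the adhesion genes EPCAM and CDH1 had none. Of these KRT19 stood at 364.2 and 350.1 FPKM with shCtrl and 461.3 and 457.9 FPKM with shKIAA1429, a log2 fold change of 0.36 (SE 0.09, unadjusted p = 0.0123, limma adjusted p = 0.709), and the groups of KRT8 and KRT18 overlapped. Of the non-epithelial markers, 1 of 2 leukocyte genes (CD68, between 44.1 and 52.3 FPKM), 0 of 2 endothelial genes and 2 of 3 fibroblast genes (COL1A1 and PDGFRB, summing to between 8.68 and 11.5 FPKM) had a row. Their part in the results below was not tested.

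No gene of the module passed the test of the difference between the groups. With the thresholds of the study, an absolute log2 fold change over 1 at an adjusted p under 0.05, 0 of the 36 genes passed. The same held for 0% of the 11657 genes tested, those with at least 1 FPKM in at least 2 libraries. The study used these thresholds with another test, DESeq on gene counts, and reported differentially expressed genes, so its test is not repeated here. The smallest adjusted p of a member, from limma on log2(FPKM + 1) over all genes tested, was 0.819. An unadjusted p under 0.05 was found for 3 of 36 members, against 5.63% of all genes tested, namely ELOVL6 and DHCR7, which were lower in shKIAA1429, and SC5D, which was higher. An absolute log2 fold change over 1 was reached by 0 members and by 1.07% of all genes.

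The module leaned towards lower values in shKIAA1429. The fold change was negative for 29 of 36 members and for 51.9% of all genes tested, and its median was -0.22 over the members and -0.01 over all genes. Both shKIAA1429 libraries lay below both shCtrl libraries for 9 members (DHCR7, INSIG2, STARD4, ACLY, FASN, ELOVL1, ELOVL6, ACSL3 and ACSL4), against 16.7% of all genes. Both lay above for 1 member, SC5D, against 16.9% of all genes. In bulk RNA, fewer cells making a transcript and less of it per cell cannot be told apart. The median rested on 1 library: it was 0.05 without shKIAA1429 replicate 1, and -0.40 without shKIAA1429 replicate 2.

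**Figure D1:**
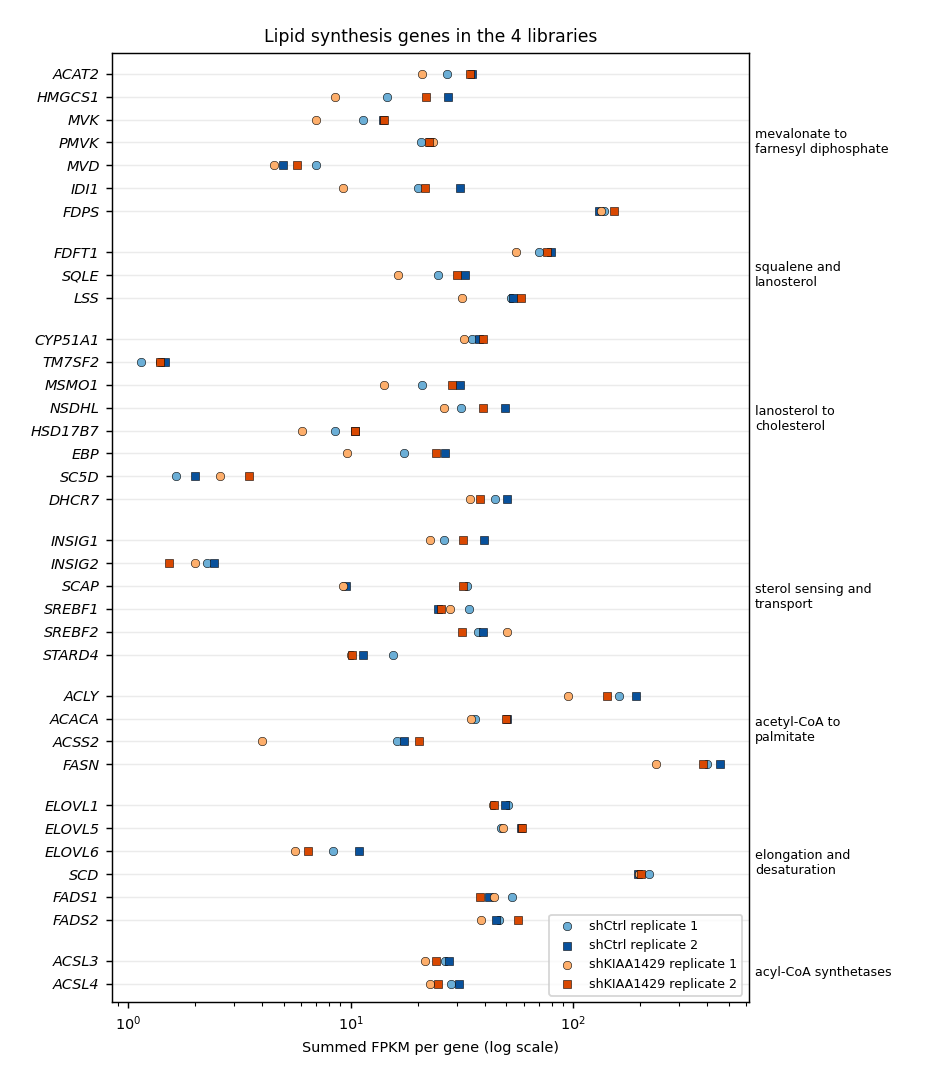
Summed FPKM of the 36 genes on a log axis, grouped by role, with 1 point for each of the 4 libraries (circles for the libraries numbered 1, squares for those numbered 2, blue for shCtrl, orange for shKIAA1429). The pale orange circle of shKIAA1429 replicate 1 is leftmost for 26 of the 36 genes, and blue and orange are fully apart for 10.

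The mevalonate branch, which turns acetyl-CoA into farnesyl diphosphate, had 7 members, 5 with a negative and 2 with a positive fold change, and the groups overlapped for all 7. IDI1, the isomerase that makes the allylic building block of isoprenoids, stood at 20.0 and 30.9 FPKM with shCtrl and 9.28 and 21.5 FPKM with shKIAA1429. Its shKIAA1429 replicate 1 stood below the other 3 libraries, while replicate 2 fell between the shCtrl values. The log2 fold change was -0.77 (SE 0.43, limma adjusted p = 0.944), and -0.20 without shKIAA1429 replicate 1. HMGCS1, which condenses acetyl units into the precursor of mevalonate, stood at 14.6 and 27.4 FPKM with shCtrl and 8.56 and 21.9 FPKM with shKIAA1429. Here too the libraries of either group lay further apart than the group means, and the log2 fold change of -0.51 (SE 0.51, limma adjusted p = 0.983) became 0.12 without shKIAA1429 replicate 1.

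MVK, the kinase that takes up mevalonate, stood at 11.4 and 13.99 FPKM with shCtrl and 6.995 and 14.2 FPKM with shKIAA1429, for a log2 difference of -0.30 (SE 0.34). ACAT2, the thiolase that opens the branch, stood at 27.2 and 35.0 FPKM with shCtrl and 21.0 and 34.3 FPKM with shKIAA1429, for a log2 difference of -0.19 (SE 0.28). In both genes shKIAA1429 replicate 1 was the lowest library and replicate 2 was level with the higher shCtrl library. The sign of both turned without shKIAA1429 replicate 1, to 0.16 for MVK and 0.15 for ACAT2. ACAT2 overlaps TCP1 and MVK overlaps MMAB on the opposite strand, and whether reads were counted by strand is not given in the sources used here. The log2 fold changes of the remaining members, FDPS, PMVK and MVD, ran from -0.17 to 0.09. FDPS, the synthase of farnesyl diphosphate, was the most abundant of the branch, between 130.3 and 151.9 FPKM in the 4 libraries.

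The enzymes that join farnesyl diphosphate into squalene and close the ring to lanosterol had their lowest sums in shKIAA1429 replicate 1, which for LSS held only with a noncoding transcript counted. FDFT1, squalene synthase, stood at 70.0 and 79.3 FPKM with shCtrl and 55.4 and 76.5 FPKM with shKIAA1429. SQLE, the epoxidase that catalyses a rate-limiting step, stood at 24.8 and 32.6 FPKM with shCtrl and 16.3 and 30.0 FPKM with shKIAA1429. LSS, lanosterol synthase, stood at 52.8 and 53.8 FPKM with shCtrl and 31.8 and 58.6 FPKM with shKIAA1429. In each gene the other shKIAA1429 library lay between or above the shCtrl values, so the groups overlapped. The log2 fold changes were -0.19 for FDFT1 (SE 0.19), -0.35 for SQLE (SE 0.32) and -0.30 for LSS (SE 0.30), and 0.04, 0.07 and 0.13 in the same order without shKIAA1429 replicate 1. Over protein-coding transcripts alone LSS stood at 25.2 and 23.5 FPKM with shCtrl and 29.8 and 27.4 FPKM with shKIAA1429, with shKIAA1429 replicate 1 the highest library and a log2 fold change of 0.22. LSS shares its strand with the overlapping gene AP001468.1.

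The 8 enzymes that trim lanosterol to cholesterol held DHCR7 and SC5D. With all listed transcripts summed, these were the only sterol enzymes whose groups did not overlap. Over protein-coding transcripts alone the groups of LSS were apart too, higher in shKIAA1429. DHCR7 (minus strand, chr11:71145460-71159481 in GRCh37), the reductase of the last step, stood at 44.7 and 50.7 FPKM with shCtrl and 34.5 and 38.1 FPKM with shKIAA1429. Both shKIAA1429 libraries lay below both shCtrl libraries, with a log2 fold change of -0.38 (SE 0.14, unadjusted p = 0.0424, limma adjusted p = 0.884). The value ran from -0.47 to -0.30 when any single library was left out. SC5D (plus strand, chr11:121163162-121179403), the desaturase of the step before it, went the other way: it stood at 1.64 and 2.01 FPKM with shCtrl and 2.59 and 3.49 FPKM with shKIAA1429. Its log2 fold change was 0.51 (SE 0.19, unadjusted p = 0.0456, limma adjusted p = 0.884), and from 0.35 to 0.67 without any 1 library. SC5D was among the lowest members, with DHCR7 well above it: its mean stood at percentile 17.8 of the genes tested and that of DHCR7 at percentile 88.8.

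EBP, the sterol isomerase, stood at 17.3 and 26.6 FPKM with shCtrl and 9.65 and 24.2 FPKM with shKIAA1429. MSMO1, a sterol methyl oxidase, stood at 20.9 and 31.0 FPKM with shCtrl and 14.1 and 28.6 FPKM with shKIAA1429. In both the groups overlapped and the fold change rested on shKIAA1429 replicate 1: the log2 fold change was -0.46 for EBP (SE 0.46) and -0.32 for MSMO1 (SE 0.38), and 0.16 for both without that library. CYP51A1, TM7SF2, NSDHL and HSD17B7 had log2 fold changes from -0.28 for NSDHL to 0.06 for TM7SF2, with overlapping groups. TM7SF2, a sterol reductase whose gene shares its strand with the overlapping VPS51, was the lowest of all members, between 1.15 and 1.46 FPKM.

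Among the genes that sense and move sterols, SREBF1, SREBF2 and SCAP varied more between libraries of a group than between group means. SREBF2, the main factor of the sterol branch, stood at 37.3 and 39.3 FPKM with shCtrl and 50.3 and 31.7 FPKM with shKIAA1429. Its shKIAA1429 libraries were the highest and the lowest of the 4, and shKIAA1429 replicate 1, the library in which most of the enzymes were lowest, held the highest SREBF2 value. The log2 fold change was 0.06 (SE 0.24), and -0.26 without shKIAA1429 replicate 1. SREBF1, the main factor of fatty acid synthesis, stood at 34.2 and 24.7 FPKM with shCtrl and 27.9 and 25.6 FPKM with shKIAA1429. Both knockdown values fell between the shCtrl values, a log2 fold change of -0.12 (SE 0.20), which became 0.11 without shCtrl replicate 1.

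SCAP, the escort of both factors, had the largest SE of the module. It stood at 33.3 and 9.52 FPKM with shCtrl and 9.25 and 32.0 FPKM with shKIAA1429. One library of each group was high and the other low, and the log2 fold change of -0.05 had an SE of 0.78. Most of the spread lay in 1 listed transcript, SCAP-215, at 24.5 and 0.000033 FPKM with shCtrl and at 0 and 21.997 FPKM with shKIAA1429. Without it SCAP stood at 8.83 and 9.52 FPKM with shCtrl and 9.25 and 10.00 FPKM with shKIAA1429, for a log2 difference of 0.06. The identifier of SCAP-215 has no match in the GENCODE 44 annotation used here.

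The INSIG genes encode the anchors that keep SCAP in the endoplasmic reticulum. INSIG1, itself a sterol-regulated gene, stood at 26.4 and 39.7 FPKM with shCtrl and 22.8 and 32.1 FPKM with shKIAA1429. INSIG2 stood at 2.27 and 2.43 FPKM with shCtrl and 2.01 and 1.53 FPKM with shKIAA1429. The INSIG1 groups overlapped and the INSIG2 groups did not; the log2 fold changes were -0.25 (SE 0.27, limma adjusted p = 0.987) and -0.28 (SE 0.17, limma adjusted p = 0.954). STARD4, a soluble sterol carrier, stood at 15.6 and 11.4 FPKM with shCtrl and 10.1 and 10.2 FPKM with shKIAA1429. Its groups were apart, with a log2 fold change of -0.36 (SE 0.19, limma adjusted p = 0.936) that was -0.16 without shCtrl replicate 1.

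The 4 genes that carry acetyl-CoA to palmitate had the lowest median of the roles, -0.55, and shKIAA1429 replicate 1 was the lowest library for each of them. FASN, fatty acid synthase, was the most abundant member, its mean at percentile 99.2 of the genes tested. It stood at 399.5 and 455.9 FPKM with shCtrl and 234.6 and 384.3 FPKM with shKIAA1429, for a log2 difference of -0.51 (SE 0.25, limma adjusted p = 0.926). ACLY, which splits citrate to supply cytosolic acetyl-CoA to both routes, stood at 160.0 and 192.4 FPKM with shCtrl and 94.6 and 142.4 FPKM with shKIAA1429. Its log2 fold change was -0.59 (SE 0.23, unadjusted p = 0.0521, limma adjusted p = 0.887). The groups were apart for both genes, and the fold changes shrank to -0.15 for FASN and -0.30 for ACLY without shKIAA1429 replicate 1.

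ACSS2, which makes acetyl-CoA from acetate, had the most negative fold change of the module and it rested on a single library. It stood at 16.2 and 17.4 FPKM with shCtrl and 4.02 and 20.3 FPKM with shKIAA1429. Replicate 1 of shKIAA1429 stood alone at the bottom and replicate 2 was the highest of the 4. The log2 fold change was -0.78 (SE 0.68, limma adjusted p = 0.977), and 0.26 without shKIAA1429 replicate 1. ACACA, the carboxylase that commits acetyl-CoA to fatty acids, stood at 36.1 and 50.3 FPKM with shCtrl and 34.7 and 49.8 FPKM with shKIAA1429. Its values fell into a lower and a higher library in each group, with a log2 fold change of -0.04 (SE 0.25). The median of the role was 0.03 without shKIAA1429 replicate 1.

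ELOVL6, the elongase that lengthens palmitate, had the smallest p of the module. It lies on the minus strand at chr4:110967002-111119832 in GRCh37, and stood at 8.38 and 10.9 FPKM with shCtrl and 5.62 and 6.44 FPKM with shKIAA1429. Both shKIAA1429 libraries lay below both shCtrl libraries. The shCtrl mean of 9.66 ± 1.80 FPKM (SD, n = 2) compares with 6.03 ± 0.58 FPKM (SD, n = 2) in shKIAA1429. On the log2 scale the difference was -0.59 (SE 0.19, unadjusted p = 0.0253, limma adjusted p = 0.819), between -0.77 and -0.42 when any single library was left out.

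The other elongases and desaturases differed less. ELOVL1, which makes very long chains, stood at 51.1 and 49.5 FPKM with shCtrl and 43.8 and 44.3 FPKM with shKIAA1429. FADS1, a desaturase of polyunsaturated fatty acids, stood at 52.9 and 41.7 FPKM with shCtrl and 44.04 and 38.3 FPKM with shKIAA1429. SCD, which makes oleate from stearate, stood at 219.8 and 195.9 FPKM with shCtrl and 197.4 and 201.8 FPKM with shKIAA1429. The groups were apart for ELOVL1 and overlapped for FADS1 and SCD. The log2 fold changes were -0.19 for ELOVL1 (SE 0.12), -0.19 for FADS1 (SE 0.17) and -0.06 for SCD (SE 0.11), and those of ELOVL5 and FADS2 were 0.02 and 0.03. FADS1 and FADS2 overlap on opposite strands, and FADS2 shares its strand with the overlapping FEN1.

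Both acyl-CoA synthetases, which activate fatty acids for use in lipids, were lower in both shKIAA1429 libraries. ACSL3, found on lipid droplets, stood at 26.5 and 27.6 FPKM with shCtrl and 21.5 and 24.3 FPKM with shKIAA1429. ACSL4, which prefers arachidonate, stood at 28.3 and 30.7 FPKM with shCtrl and 22.8 and 24.8 FPKM with shKIAA1429. The log2 fold changes were -0.23 (SE 0.14, limma adjusted p = 0.954) and -0.30 (SE 0.14, limma adjusted p = 0.917). Neither left its sign when any single library was dropped.

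**Figure D2:**
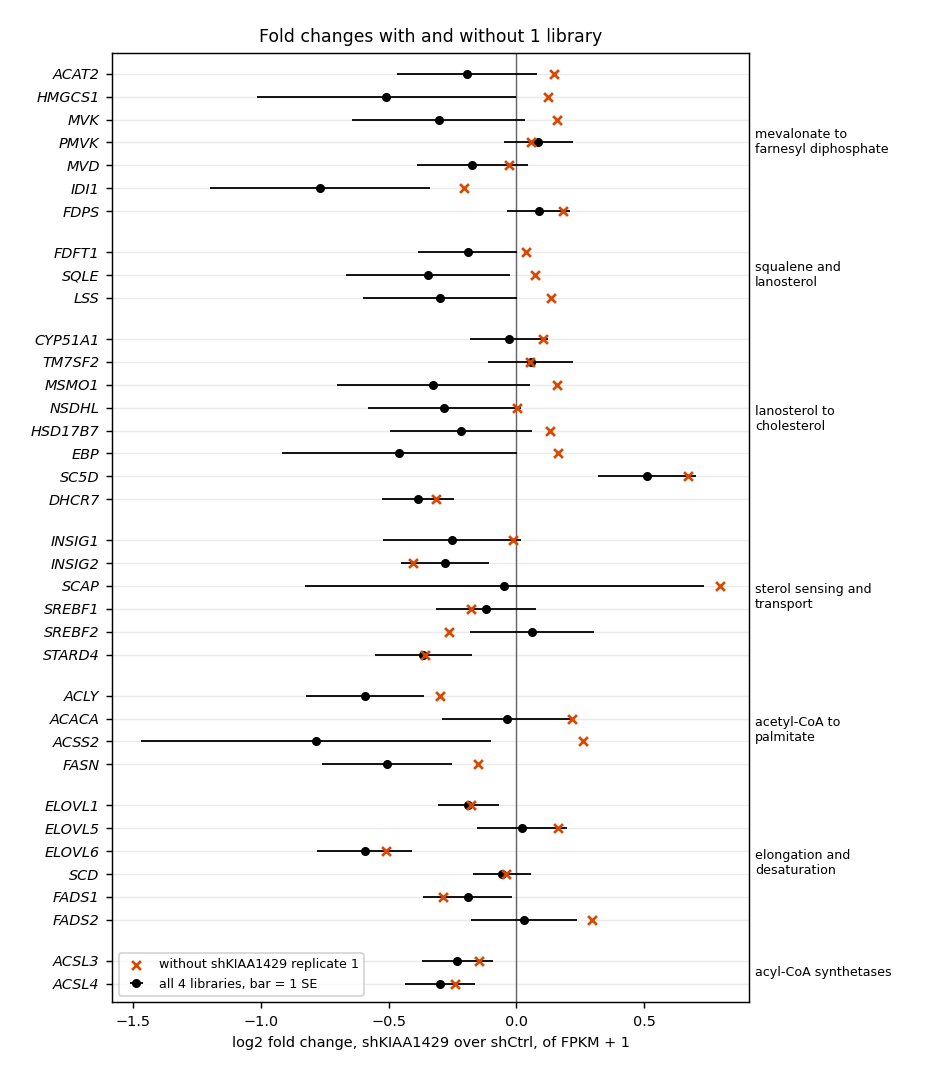
Log2 fold change of FPKM + 1, shKIAA1429 over shCtrl, for the 36 genes by role: black points with bars of 1 SE from all 4 libraries, orange crosses without shKIAA1429 replicate 1. With all libraries 29 of the points lie left of 0, and without that library 16 of the crosses do.

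To see which libraries set these values, each gene's log2(FPKM + 1) was taken relative to its own mean over the 4 libraries. The module was low in shKIAA1429 replicate 1 and not in replicate 2. The lowest library was shKIAA1429 replicate 1 for 26 of 36 members, against 31.1% of all genes tested. Over the 18 sterol enzymes the median deviation was -0.03 and 0.26 in the shCtrl libraries numbered 1 and 2, against -0.43 and 0.21 in the shKIAA1429 libraries so numbered. Over the 12 fatty acid enzymes it was 0.11 and 0.18 in shCtrl, and -0.23 and -0.01 in shKIAA1429. The 6 sensing and transport genes did not share this order, at 0.20 and -0.01 in shCtrl and at -0.10 and -0.15 in shKIAA1429. Over all genes tested the median deviation of each library lay between -0.01 and 0.01.

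The sterol enzymes also differed between the libraries numbered 1 and those numbered 2. The library numbered 2 was above that numbered 1 in both groups for 14 of the 18 sterol enzymes and for 23 of all 36 members, against 34.9% of all genes tested. It was below that numbered 1 in both groups for 2 of the 36 members, against 3688 of the 11657 genes tested. The labels do not say what a shared number stands for, and with 2 libraries a group the numbers and the hairpin cannot be set apart from other differences between libraries. The summed FPKM of the module was 1789 and 1943 in shCtrl and 1350 and 1807 in shKIAA1429.

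**Figure D3:**
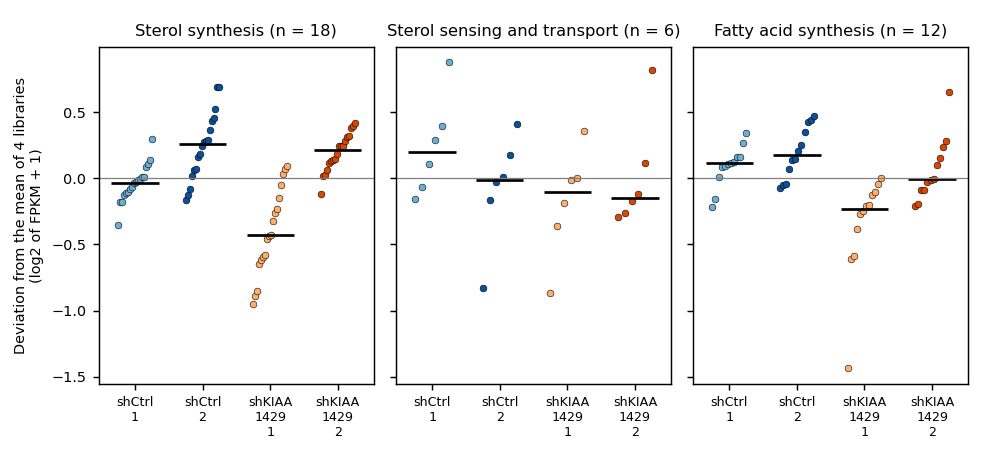
Deviation of each gene's log2(FPKM + 1) from its mean over the 4 libraries, for 18 sterol enzymes, 6 sensing and transport genes and 12 fatty acid enzymes, with 1 point a gene and a bar at the median. The sterol and fatty acid panels have their lowest medians, -0.43 and -0.23, in shKIAA1429 replicate 1.

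The promoters of the members were read for the motifs that sterol regulatory element-binding proteins and their partners NF-Y and Sp1 are known to use. Whether these motifs bear on the FPKM values above was not tested. Of the members, 32 matched a RefSeq promoter in GRCh38.p14, taken from 250 bases before to 50 bases after the transcription start, and a gene was counted if any of its listed promoters held the motif on either strand. CCAAT, the NF-Y box, was found in 24 of the 32 (75.0%), in 43.1% of the tested genes that matched and in 34.6% of all 35116 promoters. GGGCGG, an Sp1 box, was found in 30 of the 32 (93.8%), in 79.0% of those genes and in 45.0% of all promoters. TCACNCCAC, a sterol regulatory element, was found in 1 of the 32 (3.12%), SREBF2 itself, in 1.41% of those genes and in 1.13% of all promoters. The shares of all promoters count single promoters, so they are not comparable with the shares of genes. A match is a run of letters and not a bound site. Sites that depart from these letters, or lie outside the stretch searched, would be missed, so a gene without a match may still hold one.

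The bases upstream of the start are shown for SREBF2, the member with the sterol regulatory element, and for HMGCS1 and IDI1, sterol enzymes chosen after their values were seen because they differed between libraries by over 3-fold. They are read 5′ to 3′ on the gene's strand, with capitals for TCACNCCAC, CCAAT and GGGCGG or their reverse complements GTGGNGTGA, ATTGG and CCGCCC. The stretches lie in GRCh38.p14 at chr22:41832855-41833104 (plus strand), chr5:43313413-43313662 (minus strand) and chr10:1048887-1049136 (minus strand). HMGCS1 and IDI1 have 2 and 3 promoters in the table, of which the first with a CCAAT is given.
SREBF2: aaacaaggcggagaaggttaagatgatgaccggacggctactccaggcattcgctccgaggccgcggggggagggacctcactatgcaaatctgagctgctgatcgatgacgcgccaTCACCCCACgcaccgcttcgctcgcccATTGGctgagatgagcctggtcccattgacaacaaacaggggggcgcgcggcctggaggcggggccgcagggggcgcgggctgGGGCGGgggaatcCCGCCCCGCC
HMGCS1: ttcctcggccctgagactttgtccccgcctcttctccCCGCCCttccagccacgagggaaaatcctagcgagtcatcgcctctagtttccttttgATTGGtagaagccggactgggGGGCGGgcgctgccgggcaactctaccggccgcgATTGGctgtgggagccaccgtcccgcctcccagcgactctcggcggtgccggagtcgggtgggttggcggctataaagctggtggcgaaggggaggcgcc
IDI1: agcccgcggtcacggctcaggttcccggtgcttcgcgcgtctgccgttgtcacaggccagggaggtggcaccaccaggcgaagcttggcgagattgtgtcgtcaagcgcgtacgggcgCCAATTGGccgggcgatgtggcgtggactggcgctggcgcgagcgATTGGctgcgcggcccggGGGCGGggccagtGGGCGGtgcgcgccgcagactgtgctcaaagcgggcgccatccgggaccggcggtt
In SREBF2 the sterol regulatory element begins 133 bases before the start, a CCAAT follows on the minus strand at 106, and the last 2 GGGCGG matches overlap, the latter ending past the bases shown. HMGCS1 has CCAAT matches at 155 and 100 bases before the start, both on the minus strand, with GGGCGG matches at 213 and 134. In IDI1 the letters ccaattgg at 132 match on both strands, another CCAAT lies at 87, and GGGCGG matches lie at 69 and 56.

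Depletion of a subunit of the methyltransferase complex can bear on RNA processing, so the listed transcripts of the members were compared one by one. Of the 174, 129 had at least 1 FPKM in at least 2 libraries, and 0 of them passed the adjusted p and fold change thresholds, as did 0% of the 24996 transcripts tested. Of the 129, 17 had an unadjusted p under 0.05, against 6.28% of all transcripts, and an absolute log2 fold change over 1 was reached by 19 of 129 against 7.23%. Transcripts of 1 gene share reads and are not independent, and the FPKM of each rests on how the authors' tool divided them. The smallest limma adjusted p of a member transcript was 0.147, for FDFT1-223, which was at 3.57 and 3.54 FPKM in shCtrl and listed at 0 in both shKIAA1429 libraries; it was named after its value was seen.

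The share that a transcript took of its gene differed by at least 25 percentage points between group means, with the groups apart, for 8 of the 169 transcripts of members with several, against 4.38% of all such transcripts. Such differences were thus about as common among the members as over all genes. The 8 transcripts came from 5 members, ELOVL6, SC5D, NSDHL, FDFT1 and ELOVL1. These shares were compared without a test.

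ELOVL6 differed in which transcript made up its FPKM. ELOVL6-201 stood at 7.05 and 8.91 FPKM with shCtrl and 2.79 and 2.01 FPKM with shKIAA1429, or 84.1% and 81.5% of the gene against 49.7% and 31.2%. ELOVL6-202 stood at 0.771 and 0.837 FPKM with shCtrl and 2.19 and 3.64 FPKM with shKIAA1429, or 9.19% and 7.65% against 38.9% and 56.5%. ELOVL6-202 was above ELOVL6-201 in shKIAA1429 replicate 2, a little below it in replicate 1 and far below it in both shCtrl libraries, with limma adjusted p of 0.328 and 0.561. Their 795 coding bases are the same in GENCODE 44, so the elongase they encode there is too, and they differ outside the coding sequence. The lower coordinate of ELOVL6-201, its 3′ end on the minus strand, is 110970543 as listed and 110967002 in GENCODE 44. That of ELOVL6-202 is 110967002 in both. The transcripts as listed thus differ in their 3′ ends, and what this does to their FPKM and to the gene's sum was not tested.

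In NSDHL, a dehydrogenase of the demethylation steps, NSDHL-201 was likewise lower and NSDHL-203 higher in shKIAA1429. The gene has 3 listed transcripts, and NSDHL-202, with 763 coding bases, made up the rest of its sum. NSDHL-201 stood at 19.3 and 22.5 FPKM with shCtrl and 9.21 and 6.97 FPKM with shKIAA1429. NSDHL-203, with the same 1119 coding bases, stood at 0.876 and 1.82 FPKM with shCtrl and 7.49 and 29.9 FPKM with shKIAA1429. The share of NSDHL-203 was 2.80% and 3.69% in shCtrl and 28.6% and 75.9% in shKIAA1429, and the limma adjusted p of the transcripts were 0.310 and 0.588. In SC5D the difference reached the coding sequence: SC5D-201 has 897 coding bases, and SC5D-208 has 684 of these and no others. SC5D-201 stood at 1.64 and 0.897 FPKM with shCtrl and 0.297 and 0.444 FPKM with shKIAA1429, and SC5D-208 was listed at 0 and at 1.11 FPKM with shCtrl and at 2.29 and 3.05 FPKM with shKIAA1429. The higher SC5D sum in shKIAA1429 thus lay in the shorter reading frame, while the transcript with the longer frame was lower in both shKIAA1429 libraries. SC5D-201 had too few libraries over 1 FPKM to be tested, and SC5D-208 had a limma adjusted p of 0.763.

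FDFT1-208 stood at 26.8 and 35.6 FPKM with shCtrl and 10.2 and 10.8 FPKM with shKIAA1429, or 38.3% and 44.9% of the gene against 18.4% and 14.1%. FDFT1-201 stood at 20.9 and 18.2 FPKM with shCtrl and 23.1 and 33.7 FPKM with shKIAA1429. The gene's sum thus hid a lower and a higher transcript, with limma adjusted p of 0.253 for FDFT1-208 and 0.944 for FDFT1-201. FDFT1-208 is not in GENCODE 44, so its coding sequence was not analysed here.

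**Figure D4:**
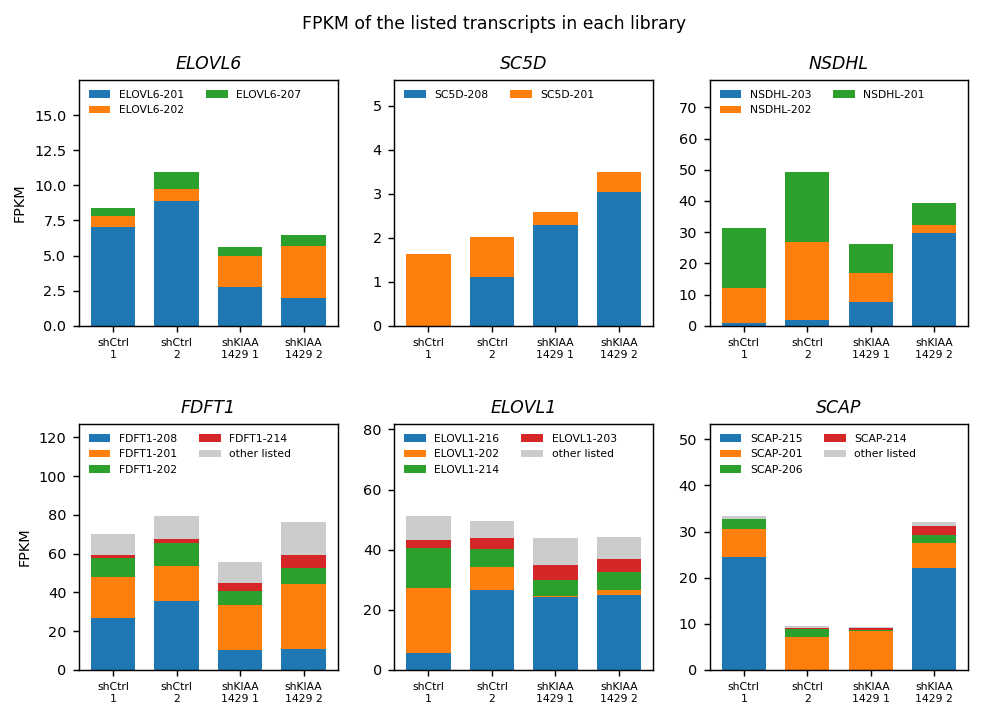
Stacked bars of FPKM by transcript in each of the 4 libraries, for ELOVL6, SC5D, NSDHL, FDFT1, ELOVL1 and SCAP, with transcripts outside the leading 4 in grey. The taller SCAP bars are those with SCAP-215, of shCtrl replicate 1 and shKIAA1429 replicate 2, and without it the sums lie between 8.83 and 10.00 FPKM.

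In ELOVL1 the listed transcripts differ by a coding exon. ELOVL1-216 carries an exon of 81 bases, its exon 4, at chr1:43830599-43830679 on the minus strand in GRCh37, that ELOVL1-202 lacks. ACLY and ACSS2 carry cassette exons of the same kind, of 30 bases (exon 14, chr17:40052873-40052902, minus strand) and 39 bases (exon 8, chr20:33503021-33503059, plus strand), and are given because ACLY and ACSS2 had the most negative fold changes of the acetyl-CoA supply. The exons are in capitals, flanked by coding bases of the neighbouring exons in lower case, and each length is a multiple of 3, so the reading frame is kept.
ELOVL1 exon 4: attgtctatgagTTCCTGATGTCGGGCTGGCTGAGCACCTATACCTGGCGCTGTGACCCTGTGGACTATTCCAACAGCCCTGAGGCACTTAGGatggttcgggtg
ACLY exon 14: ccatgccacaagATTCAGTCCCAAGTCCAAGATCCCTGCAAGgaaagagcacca
ACSS2 exon 8: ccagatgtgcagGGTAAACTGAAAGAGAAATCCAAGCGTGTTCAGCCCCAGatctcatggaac
ELOVL1-202, without the exon, stood at 21.3 and 7.58 FPKM with shCtrl and 0.522 and 1.67 FPKM with shKIAA1429, with a limma adjusted p of 0.480. ELOVL1-216, with it, stood at 5.74 and 26.6 FPKM with shCtrl and 24.1 and 24.98 FPKM with shKIAA1429. Of the FPKM of this pair, the transcript with the exon made up 21.2% and 77.8% in shCtrl and 97.9% and 93.7% in shKIAA1429. The share was higher in both shKIAA1429 libraries, and the shCtrl libraries lay further from each other than shCtrl replicate 2 did from either shKIAA1429 library.

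The shares of the cassette exons of ACLY and ACSS2 overlapped between the groups. For ACLY the share is that of ACLY-201 and ACLY-207, with exon 14, in their FPKM and that of ACLY-202, without it. This share was 47.6% and 24.2% in shCtrl and 67.2% and 25.7% in shKIAA1429. For exon 8 of ACSS2 the share of ACSS2-201, with it, beside ACSS2-202, without it, was 84.8% and 78.7% in shCtrl and 61.5% and 82.1% in shKIAA1429. Other listed transcripts of ACLY and ACSS2 were not counted. The ACLY share was higher in both libraries numbered 1 than in both numbered 2, and the ACSS2 share was lowest in shKIAA1429 replicate 1.

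Some single transcripts were present in some libraries and nearly absent from others. Among the members 5 transcripts of 3 genes, IDI1, SCAP and ACACA, were at 5 FPKM or more in 1 library and under 0.1 FPKM in another. The same count was not made over all transcripts, so whether the members differ from other genes in this is unknown. ACACA-231 was at 26.2 FPKM in shCtrl replicate 1, listed at 0 in shCtrl replicate 2 and shKIAA1429 replicate 2, and at 0.0262 FPKM in shKIAA1429 replicate 1, and the ACACA sum was not highest in shCtrl replicate 1. LSS-206, a processed transcript without a coding sequence, stood at 25.4 and 25.9 FPKM with shCtrl and 0.162 and 27.0 FPKM with shKIAA1429. Without LSS-206 the LSS sum was 27.4 and 27.9 FPKM in shCtrl and 31.6 and 31.6 FPKM in shKIAA1429, above both shCtrl libraries. LSS was the only member whose sign changed when protein-coding transcripts alone were summed.

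The genes around the module were taken from lists of the same pathways. Of those tested 0 passed the thresholds in any list, as did 0% of all genes tested, which bears on no direction. ABCA1, MBTPS1 and SLC25A20 alone had an unadjusted p under 0.05, which 5.63% of all genes had. For the signs below, 51.9% of all genes tested had a negative fold change. Of 11 other sterol and isoprenoid enzymes 6 had a negative and 5 a positive fold change, with a median of -0.01. Of 13 genes that process the sterol regulatory element-binding proteins, degrade sterol-regulated proteins or answer to liver X receptors, 8 were negative and 5 positive, with a median of -0.03. ABCA1, the cholesterol exporter and a liver X receptor target, stood at 12.6 and 10.3 FPKM with shCtrl and 8.24 and 6.52 FPKM with shKIAA1429. MBTPS1, the protease that makes the opening cut in the factors, stood at 15.4 and 13.8 FPKM with shCtrl and 21.1 and 18.9 FPKM with shKIAA1429. Both had groups that did not overlap, with log2 fold changes of -0.58 (SE 0.19, limma adjusted p = 0.835) and 0.43 (SE 0.15, limma adjusted p = 0.877).

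Of 10 genes of sterol uptake, traffic and esterification 8 were negative and 2 positive, with a median of -0.13. NPC2, which hands cholesterol out of the lysosome, had the most negative value, -0.35 (SE 0.18, limma adjusted p = 0.936). Of 16 other genes of fatty acid synthesis and elongation 9 were negative and 7 positive, with a median of -0.03. Of 19 genes of fatty acid oxidation, the opposing route, 11 were negative and 8 positive, with a median of -0.06. SLC25A20, the mitochondrial acylcarnitine carrier, stood at 5.69 and 7.07 FPKM with shCtrl and 4.50 and 4.13 FPKM with shKIAA1429, with a limma adjusted p of 0.884. Of 14 genes of glycerolipid synthesis and lipid droplets 10 were negative and 4 positive, with a median of -0.08.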

How the data were processed

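RNA-seq of 4 HCCLM3 libraries, 2 per group, was used, with group and replicate taken from the sample titles. The deposited files hold FPKM per transcript on GRCh37, as the file headers state. The submitters' processing notes name Bowtie2 2.1.0. The tool with which the authors made the FPKM values, and its strand and multiple-mapping rules, are not given in the sources used here, and the methods describe gene counts, which were not used here. FPKM scale each library to its own total, so abundant RNAs shift all other values. Listed transcripts reach at least 0.504 FPKM in some library. In the deposited files 108 gene symbols stood as dates and were restored by matching rows between libraries.

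FPKM were summed per gene identifier. Genes with at least 1 FPKM in at least 2 libraries were compared on log2(FPKM + 1) with limma 3.58.1 in R 4.3.3 (eBayes with a mean-variance trend and 2.87 prior degrees of freedom, two-sided tests, no covariate), and p-values were adjusted by Benjamini-Hochberg over all genes, or all transcripts, tested. A pseudocount of 1 understates the change of low genes. The fit was tested on simulated data. Of the members' transcripts, 165 of 174 matched GENCODE 44 lifted to GRCh37; some of its ends differ from those in the files. Promoters are from RefSeq, GRCh38.p14.

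The members and all gene lists were chosen with earlier results of these data known, so no list was tested. Values in every library are given for each sensing member and for the 4 members with the largest absolute log2 fold change in every other role, and for transcripts whose share moved by at least 25 points with the groups apart. Other genes and transcripts were named after their values were seen. Some genes of these lists are not reported here. Alternatives were upper quartile scaling, no filter, at least 1 FPKM in every library, a pseudocount of 0.1, a replicate block, either threshold alone and leaving out each library. The sums over protein-coding transcripts and SCAP without SCAP-215 were added once the data had been seen. Python 3.11.15 and matplotlib 3.10.9 drew the figures.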

Additional observations from a re-analysis of the deposited data

How the results depend on the processing

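The count of 0 members past both thresholds was the same under every alternative run. Over all genes it was 0 to 1 when single libraries were left out (1 without shCtrl replicate 1) and 125 by fold change alone, by which 19 member transcripts also passed. The count of members at an unadjusted p under 0.05 was 3 with all libraries, against 5.63% of all genes. In the fits without a library, the lone library of its group is assumed to vary like the other group, so this count is not given for them. With the replicate number as a block it was 9 of 36, against 10.9% of all genes, and the smallest adjusted p of a member was 0.371. The labels do not say that the number pairs libraries, same-numbered libraries deviated together with a correlation of 0.32 across genes, and with 2 pairs this was not taken as pairing. The block changed no call and no sign.

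The median log2 fold change of the members ran from -0.40 to 0.046 without single libraries. The sign of 13 members held in all 4 of these fits and that of 23 did not. It changed for 15 without shKIAA1429 replicate 1, 6 without shCtrl replicate 1, 4 without shCtrl replicate 2 and 3 without shKIAA1429 replicate 2. Sign changes were not counted over all genes tested, so whether the members differ from other genes in this is unknown. The ranges of the 23 were -0.29 to 0.22 for ACACA, -0.53 to 0.15 for ACAT2, -1.83 to 0.26 for ACSS2, -0.16 to 0.10 for CYP51A1, -1.08 to 0.16 for EBP, -0.12 to 0.17 for ELOVL5, -0.24 to 0.29 for FADS2, -0.42 to 0.038 for FDFT1, -0.0067 to 0.18 for FDPS, -1.14 to 0.12 for HMGCS1, -0.56 to 0.13 for HSD17B7, -0.54 to 0.034 for INSIG1, -0.73 to 0.13 for LSS, -0.81 to 0.16 for MSMO1, -0.38 to 0.037 for MVD, -0.77 to 0.16 for MVK, -0.60 to 0.036 for NSDHL, -0.90 to 0.81 for SCAP, -0.14 to 0.027 for SCD, -0.77 to 0.074 for SQLE, -0.34 to 0.11 for SREBF1, -0.26 to 0.39 for SREBF2 and -0.042 to 0.16 for TM7SF2. With protein-coding transcripts only, LSS was at 0.22, and SCAP without SCAP-215 was at 0.062. No sign changed with upper quartile scaling, which moved the median of all genes by 0.0155, with either other filter or with a pseudocount of 0.1. The count of members whose groups do not overlap, 10, was 11 with upper quartile scaling or protein-coding transcripts only; the other planned settings do not alter it or, with 1 library in an arm, were not run. Depth is unknown, so what a low FPKM can show is too.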
